A study of Macaca mulatta with 10 samples.

Results

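Skeletal muscle fibers are built either as slow, fatigue-resistant fibers or as faster fibers, and each kind uses its own versions (isoforms) of the proteins that generate and control force. The genes examined here encode the slow set. *MYH7* encodes the slow myosin heavy chain, *MYL2* and *MYL3* its light chains, *TNNT1*, *TNNI1* and *TNNC1* the slow troponin subunits, *TPM3* slow tropomyosin and *ATP2A2* SERCA2, the pump that returns calcium to the sarcoplasmic reticulum. Slow fibers are rich in mitochondria and take up glucose well in response to insulin. *MYH7*, *MYL2*, *MYL3* and *TNNC1* are also the versions used by cardiac ventricle, and *ATP2A2* and *TPM3* have other transcripts that serve the calcium stores and the cytoskeleton of many non-muscle cells.

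The members were chosen by symbol, and 7 of the 8 were found among the 28595 genes of the files. *TNNI1* was not analysed here, since the gene ID that the name table gives for it was not among the IDs in the files. RNA-Seq of poly(A) RNA came from 5 male rhesus monkeys, and each animal gave a muscle and an adipose library, 10 in all. Monkey rhesus_950807 is hyperinsulinemic and carries a heterozygous nonsense mutation in *PRKD2*, which encodes a serine/threonine kinase. Monkeys rhesus_920401, rhesus_940129, rhesus_940313 and rhesus_950509 are controls without it. The labels give the tissue as muscle or fat, and which muscle was sampled is not given in the sources used here.

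The muscle library of rhesus_950807 held 33961486 mapped reads and those of the controls 35682861 to 43268985. The adipose library of rhesus_950807 held 41780234 mapped reads and those of the controls 30669915 to 39379286. The tissues matched their labels, since 7 skeletal muscle markers summed to 51137 to 66776 RPKM (reads per length of transcript and per mapped total of the library) in the 5 muscle libraries and to 28.5 to 226 RPKM in the 5 adipose libraries. Cardiac markers were near the lower end of detection in muscle, with the 5 found summing to 0.0517 to 0.727 RPKM and 2 or 3 of them at 0 reads. The adipose libraries of controls rhesus_920401 and rhesus_940313 stood apart in their skeletal muscle RNA. *ACTA1*, which encodes skeletal muscle actin, reached 101 and 80.9 RPKM there, against 0.444 to 1.72 RPKM in the other 3 adipose libraries. The differences in adipose tissue and between tissues are therefore also given without these libraries, an alternative chosen after the data were seen.

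In the coordinates of the files, whose genome build is not given in the sources used here, *MYH7* (ENSMMUG00000014762) lies on the minus strand of chromosome 7 from 86250432 to 86274537. *MYL2* (ENSMMUG00000002347) lies on the minus strand of chromosome 11 from 111843878 to 111853711, and *ATP2A2* (ENSMMUG00000001739) on the plus strand of the same chromosome from 111191147 to 111258369. The plus strand of chromosome 2 holds *MYL3* (ENSMMUG00000014741) from 89676856 to 89682057 and *TNNC1* (ENSMMUG00000005618) from 83923784 to 83926416. *TNNT1* (ENSMMUG00000006169) is on the minus strand of chromosome 19 from 61136425 to 61151902, and *TPM3* (ENSMMUG00000010805) on the minus strand of chromosome 1 from 132673602 to 132690721. The 7 genes thus come from 5 chromosomes, and only *MYH7* overlapped another annotated gene, which had 0 reads in muscle. *MYH7* has a close relative in *MYH6* and *TPM3* has near-identical copies in primate genomes, so that the use of uniquely mapped reads makes their levels uncertain.

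In muscle all 7 slow genes were at their lowest in monkey rhesus_950807, and all 7 were at their highest in 1 control, rhesus_940129. *MYH7*, the motor protein of slow fibers, had 12.9 RPKM (2501 reads) in rhesus_950807, against 80.1, 531, 45.5 and 72.0 RPKM in controls rhesus_920401, rhesus_940129, rhesus_940313 and rhesus_950509 (17732, 108539, 11287 and 15002 reads). The hyperinsulinemic animal was thus at 28.2% of the lowest control, and rhesus_940129 was 7.37 times the median of the other 3 controls.

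The light chains stabilise the lever arm of the myosin head, and that of *MYL2* can be phosphorylated to tune force. *MYL2* had 29.0 RPKM in rhesus_950807, against 208, 1145, 147 and 172 RPKM in the 4 controls in the same order. *MYL3* had 10.2 RPKM in rhesus_950807, against 76.0, 648, 55.1 and 105 RPKM in the controls. For both, rhesus_950807 lay below every control, at 19.7% and 18.5% of the lowest one.

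The troponin subunits sit on the thin filament and switch contraction on with calcium. *TNNT1*, which anchors the complex to tropomyosin, had 14.3 RPKM in rhesus_950807, against 90.0, 651, 69.7 and 130 RPKM in the controls. *TNNC1*, the calcium sensor, had 43.3 RPKM in rhesus_950807, against 178, 1530, 168 and 238 RPKM in the controls. Again rhesus_950807 was below, and rhesus_940129 far above, the remaining animals, which were close to each other.

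*TPM3*, which encodes the tropomyosin that covers the myosin sites on actin, was the member that varied least. *TPM3* was counted per gene, so its slow transcript was not separated from its transcripts of non-muscle cells. It had 2.41 RPKM (175 reads) in rhesus_950807, against 5.06, 6.70, 4.91 and 5.53 RPKM in the controls (418, 511, 454 and 430 reads). The controls were close together, and rhesus_950807 was at 49.1% of the lowest. *ATP2A2* had 7.12 RPKM in rhesus_950807, against 24.1, 149, 12.8 and 22.9 RPKM in the controls, so that rhesus_950807 was at 55.7% of control rhesus_940313.

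**Figure D1:**
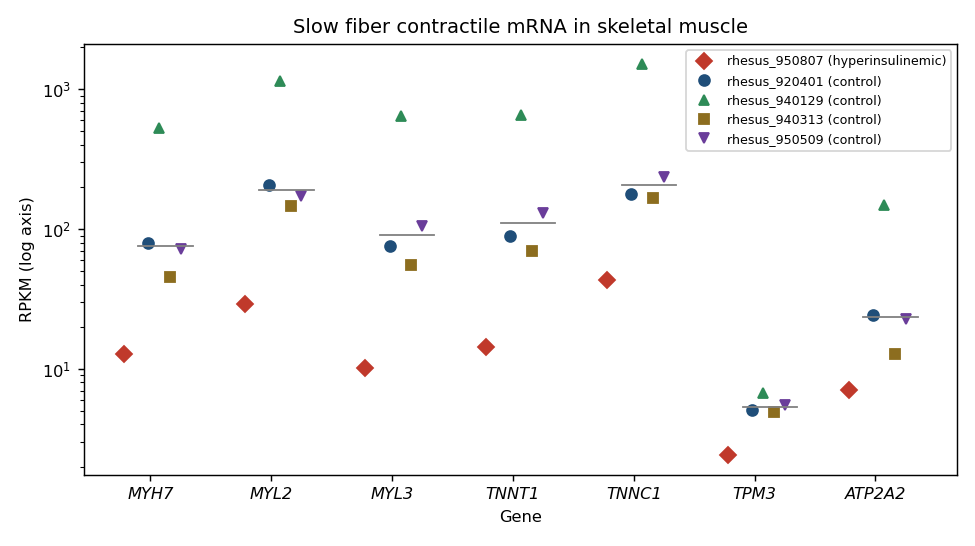
RPKM of each slow gene in skeletal muscle on a log axis, with 1 point per animal (n = 1 hyperinsulinemic and 4 control monkeys) and a line at the control median. Monkey rhesus_950807 is the lowest point of each of the 7 genes and control rhesus_940129 the highest, while *TPM3* spans the narrowest range.

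Ordered by the control mean in muscle, *TNNC1* was the most abundant member at 529 ± 669 RPKM (SD, n = 4), before *MYL2* at 418 ± 486 RPKM and *TNNT1* at 235 ± 279 RPKM. *MYL3* followed at 221 ± 285 RPKM, *MYH7* at 182 ± 233 RPKM, *ATP2A2* at 52.2 ± 64.7 RPKM and *TPM3* at 5.55 ± 0.811 RPKM (SD, n = 4 for each). From *TNNC1* to *ATP2A2* these SDs between animals exceed the means, but the genes share their libraries and most of the order held within them. In 5 of 5 muscles *MYL2* was above *TNNT1*, *TNNT1* above *MYL3*, *MYH7* above *ATP2A2* and *ATP2A2* above *TPM3*. *TNNC1* was above *MYL2* in 4 of 5 and *MYL3* above *MYH7* in 3 of 5, so these neighbours had no fixed order.

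The spread among the control muscles was among the widest of all genes. The SD of log2 CPM (reads scaled to library size by TMM) over the 4 controls was 1.34 to 1.56 for the members other than *TPM3*, against a median of 0.33 over the 8306 genes tested in muscle. These 6 members ranked from 54 to 98 of 8306, counted from the widest spread. *TPM3* had an SD of 0.18 and stood at percentile 15.0. The highest control was 7.78 to 11.8 times the lowest for the 6 members and 1.37 times for *TPM3*.

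Control rhesus_940129 made most of this spread. Without it, the highest remaining control was 1.41 to 1.91 times the lowest for the 6 members and 1.13 times for *TPM3*. In 6 of the 7 members rhesus_940129 exceeded each other control by at least 2 on the log2 scale, which only 14 of the 8306 genes did (0.169%). The order with rhesus_940129 highest and rhesus_950807 lowest of the 5 muscles held in 7 of 7 members and in 4.86% of all genes tested. Together the members took 0.0252% of the reads in genes in the muscle of rhesus_950807, against 0.154%, 1.12%, 0.0973% and 0.178% in the controls.

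The slow genes other than *TPM3* kept similar proportions to each other over a wide range of levels. *MYH7* spanned 41.3-fold between rhesus_950807 and rhesus_940129, yet *MYL2* divided by *MYH7* was 2.26 in rhesus_950807 and 2.16 to 3.23 in the controls. *MYL3* over *MYH7* was 0.791 in rhesus_950807 and 0.948 to 1.46 in the controls. The ratio of *TNNT1* to *MYH7* was 1.11 in rhesus_950807 and 1.12 to 1.80 in the controls, and that of *TNNC1* was 3.37 in rhesus_950807 and 2.23 to 3.69 in the controls.

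*ATP2A2* departed somewhat from this, at 0.554 of the *MYH7* level in rhesus_950807 and 0.280 to 0.318 in the controls. *TPM3* did not follow the others, at 0.188 of *MYH7* in rhesus_950807 and 0.0126 to 0.108 in the controls. The ratio to *MYH7* varied by at most 1.98-fold over the 5 muscles for the members other than *TPM3*, and 14.9-fold for *TPM3*. These ratios are descriptions over 5 libraries, with no test.

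**Figure D2:**
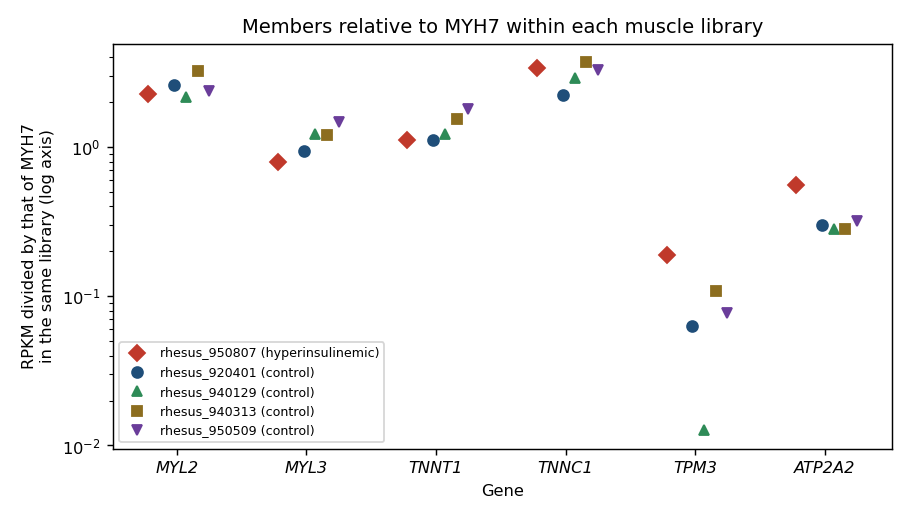
RPKM of each member divided by that of *MYH7* in the same muscle library, on a log axis, with 1 point per animal. The points of *MYL2*, *MYL3*, *TNNT1*, *TNNC1* and *ATP2A2* lie within a 1.98-fold range, and those of *TPM3* span 14.9-fold.

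The comparison of rhesus_950807 with the 4 controls asks whether these levels differ in the hyperinsulinemic animal beyond the spread of the controls. With 1 hyperinsulinemic animal, its spread was taken as that of the controls. edgeR's quasi-likelihood test on the read counts, adjusted over the 8306 genes, called 0 of the 7 members, and it called 0% of all genes in muscle. At an unadjusted p under 0.05, 7 of 7 members were lower in rhesus_950807, against 5.29% of all genes lower at that level and 9.08% in either direction. With robust variance estimates in edgeR only 1 of 7 members reached that level, against 8.82% of all genes. The median log2 difference of the members was -3.98, against -0.03 over all genes. By contrast, DESeq2 called 1 member, *TPM3*, and 1.06% of all genes, and limma called 0 members. Of the 8306 genes limma called 1 on log2(RPKM + 1) and 0 on log2(RPKM + 0.1).

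The log2 difference of *MYH7* was -3.98 ± 1.44 (SE; 95% interval -7.21 to -0.75), with an unadjusted p of 0.0209 and an adjusted p of 0.496 in edgeR. *MYL2* differed by -4.00 ± 1.28 and *MYL3* by -4.60 ± 1.53, with edgeR adjusted p of 0.482 and 0.496. *TNNT1* differed by -4.20 ± 1.35 and *TNNC1* by -3.76 ± 1.39, with edgeR adjusted p of 0.482 and 0.497. None of these differences passed the threshold after adjustment.

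*ATP2A2* differed by -3.03 ± 1.31, with an edgeR adjusted p of 0.542. *TPM3* had the smallest difference, -1.38 ± 0.38 (95% interval -2.22 to -0.53), and also the smallest p of the members, 0.00481 unadjusted and 0.460 adjusted in edgeR. DESeq2 gave it a log2 difference of -1.37 with an adjusted p of 0.0356. The adjusted p of *TPM3* ranged from 0.0356 to 0.584 over the alternatives.

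The size of the difference rests in part on control rhesus_940129. Without it the log2 differences of the 6 members other than *TPM3* were -3.16 to -1.68, that of *MYH7* being -2.55. In that fit edgeR called 0 of 7 members, with a smallest adjusted p of 0.107, and 0 of 8245 genes. In 7 of 7 members rhesus_950807 lay below all 4 controls, against 23.2% of the genes tested on the TMM-scaled values. In an exact two-sided permutation test of RPKM over the 5 animals, *TPM3* reached p = 0.2, the smallest this design allows, and the other 6 members p = 0.4, since on this linear scale rhesus_940129 lies farther from the rest than rhesus_950807 does. On the log2 scale rhesus_950807 was the farther one for *MYL2*, *MYL3* and *TNNT1*, at -2.74 from the mean of the 5 muscles for *MYL2* beside 2.66 for rhesus_940129, and that scale was not tested by permutation. Scaling shifts the median log2 difference of all genes in muscle from -0.03 with TMM to 0.14 with mapped reads, small beside these values.

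Fast fibers use their own versions of the same proteins, so the slow share of each pair, 100 × slow / (slow + fast) in RPKM, does not depend on how a library is scaled. The fast partners of *MYL2* and *TNNI1* could not be paired, and *MYH4*, which encodes the heavy chain of the fastest fibers, was the only fast heavy chain used, which left 6 of 8 pairs. With the fast chains *MYH1* and *MYH2* left out, the *MYH7* share is an upper limit. Its size cannot be compared with the other shares. In rhesus_950807 the *MYH7* share of *MYH7* and *MYH4* was 8.95%, against 35.7%, 81.5%, 20.5% and 35.5% in controls rhesus_920401, rhesus_940129, rhesus_940313 and rhesus_950509. The share of *MYL3* with *MYL1* was 0.196% in rhesus_950807, against 2.04%, 15.2%, 0.934% and 2.18% in the controls. Both shares were lowest in rhesus_950807.

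The slow troponins were small fractions of their pairs in every muscle. The *TNNT1* share with *TNNT3* was 0.170% in rhesus_950807, against 1.29%, 9.29%, 0.833% and 1.82% in the controls. The *TNNC1* share with *TNNC2* was 0.224% in rhesus_950807, against 1.15%, 11.0%, 0.828% and 1.82% in the controls.

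The *TPM3* share with *TPM1*, the tropomyosin of fast fibers, was 0.102% in rhesus_950807, against 0.361%, 0.498%, 0.201% and 0.416% in the controls. The *ATP2A2* share with *ATP2A1*, the calcium pump of fast fibers, was 0.0835% in rhesus_950807, against 0.262%, 2.10%, 0.113% and 0.301% in the controls. In 6 of 6 pairs the share of rhesus_950807 was below that of all 4 controls. The median over pairs was 0.183% in rhesus_950807 and 3.51 ± 4.45% in the controls (SD, n = 4), and 0.183% lies below the lowest control median of 0.831%. The exact permutation test (two-sided) of the median in percent gave p = 0.4.

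**Figure D3:**
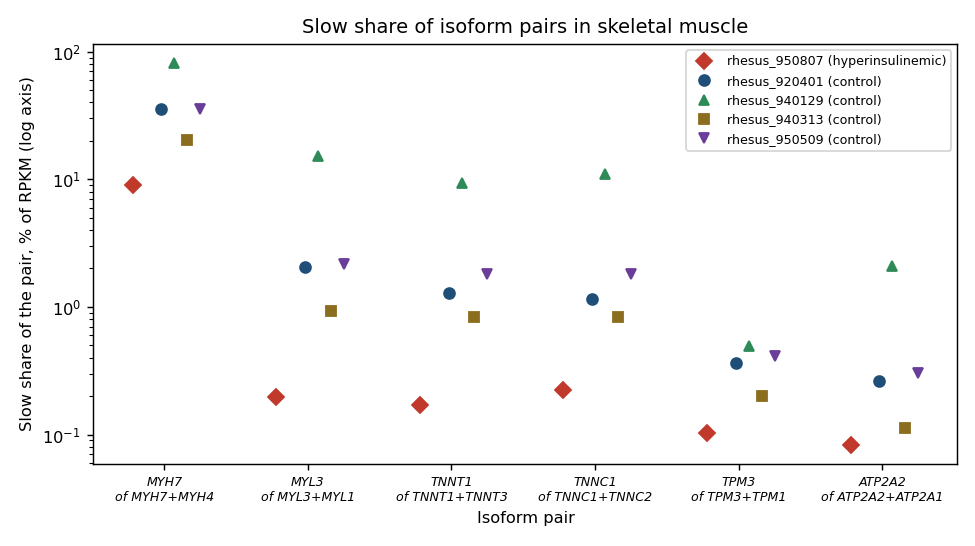
Slow isoform as a percentage of the slow and fast RPKM of its pair in skeletal muscle, on a log axis, with 1 point per animal. Monkey rhesus_950807 is lowest in each of the 6 pairs, from 0.0835% for *ATP2A2* to 8.95% for *MYH7*, and control rhesus_940129 is highest. The *MYH7* share is an upper limit, since *MYH4* was the only fast heavy chain used.

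The fast partners themselves varied little. *MYH4* had 130.7 RPKM in rhesus_950807 and 143 ± 24.4 RPKM in the controls (SD, n = 4), and *TNNC2*, the fast calcium sensor, had 19312 RPKM in rhesus_950807 and 15140 ± 3569 RPKM in the controls. Over the 7 fast genes found, the log2 differences ran from -0.30 for *MYH4* to 0.37 for *TPM1*, edgeR called 0 of 7, and 0 of 7 had an unadjusted p under 0.05. The highest control was 1.30 to 1.84 times the lowest, and rhesus_940129 was at 0.755 to 0.958 of the median of the other controls. The low shares of rhesus_950807 and the high shares of rhesus_940129 thus followed the levels of the slow genes. In tissue RNA, fewer slow fibers and less slow isoform RNA per fiber cannot be told apart.

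The 10 genes outside the set whose level followed the members most closely over the 5 muscle libraries were found by the root-mean-square distance of centred log2 CPM to the members' mean, among 6186 named genes with a median distance of 1.59. On this measure the nearest was *MYOZ2* (distance 0.35), which encodes a Z-disc protein that binds calcineurin and is typical of slow and cardiac muscle. It had 0.246 RPKM in rhesus_950807, against 1.43, 9.07, 0.772 and 0.896 RPKM in the controls. Next came *COMP* (0.44) and *THBS4* (0.53), which encode related matrix proteins found in tendon and muscle connective tissue. *THBS4* had 5.13 RPKM in rhesus_950807, against 19.4, 57.5, 14.1 and 34.7 RPKM in the controls.

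The remaining genes were *RRP15* (0.59), *MAOB* (0.66), *PPIF* (0.71), *GPCPD1* (0.72), *KCNQ5* (0.72), *HRCT1* (0.74) and *MEDAG* (0.75). *MAOB* encodes a mitochondrial monoamine oxidase and *PPIF* the cyclophilin of the mitochondrial matrix. *TPM3*, at a distance of 1.08, lay farther from the members' mean than any of these 10. The distance is a description over 5 libraries, and the edgeR adjusted p of these genes in muscle was 0.342 to 0.594.

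**Figure D4:**
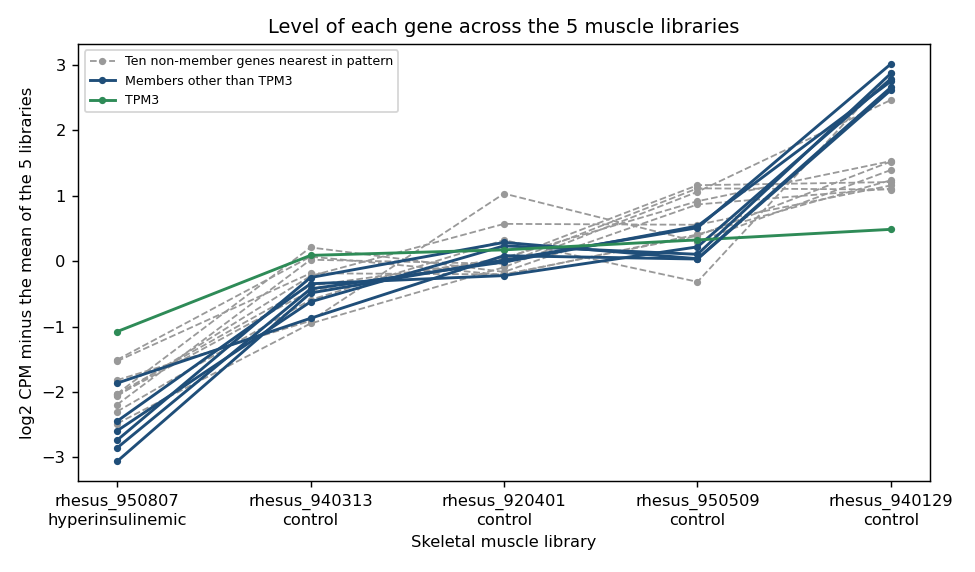
log2 CPM minus the mean over the 5 muscle libraries for the 7 members (solid lines) and the 10 nearest other genes (dashed lines), with the libraries ordered by the members' mean, from -2.38 in rhesus_950807 to 2.46 in rhesus_940129. The members other than *TPM3* run close together, and *TPM3* and most of the other genes show smaller excursions in rhesus_940129.

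Several marker lists for other cells also differed between the muscle libraries, with 0 genes called by edgeR in any of them. The 4 of 5 tendon markers found summed to 7.57 RPKM in rhesus_950807, against 23.8, 74.0, 17.3 and 49.8 RPKM in controls rhesus_920401, rhesus_940129, rhesus_940313 and rhesus_950509, with 0 of 4 at 0 reads. Most of this sum was *THBS4*, already named for its likeness to the members. The 3 tendon markers tested had a negative log2 difference (median -2.79, against -0.03 over all genes). Of these, 2 had an unadjusted p under 0.05 in edgeR, against 9.08% of all genes. *FMOD* differed by -2.86 ± 1.03 and *TNMD* by -1.79 ± 1.31, with edgeR adjusted p of 0.496 and 0.71. *COL12A1*, a collagen on the same list that did not pass the filter in muscle, did not follow the members. It had 0.784 RPKM in rhesus_950807 and 0.324 to 1.08 RPKM in the controls.

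The 5 of 7 macrophage markers found summed to 8.76 RPKM in rhesus_950807 and 11.1 to 36.6 RPKM in the controls, with 0 of 5 at 0 reads, and 4 of the 4 tested had a negative log2 difference (median -1.17, against -0.03 over all genes). Unlike the members, this sum was highest in rhesus_920401 and not in rhesus_940129. Of 9 smooth muscle and pericyte markers tested, 8 had a negative log2 difference (median -0.84, against -0.03 over all genes). Among these 9, 4 had an unadjusted p under 0.05 in edgeR, against 9.08% of all genes, and they went in both directions. *MYH11* (-1.19), *CNN1* (-1.725) and *LMOD1* (-1.556) were lower in rhesus_950807, and *ABCC9* (0.957) was higher. The 9 markers summed to 3768 RPKM in rhesus_950807 and 2375 to 5106 RPKM in the controls, with 0 of 9 at 0 reads. Most of this sum was *DES*, which skeletal fibers express as well.

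Of the markers of immature or regenerating muscle 4 of 7 were found, with 0 of the 4 at 0 reads in rhesus_950807 and 1 or 2 in the controls, and 2 were tested, 1 lower and 1 higher. They summed to 26.99 RPKM in rhesus_950807 and 5.47 to 8.70 RPKM in the controls. Most of that sum in rhesus_950807 was *CHRNA1*, a subunit of the acetylcholine receptor, at 23.3 RPKM in rhesus_950807 and 2.52 to 6.70 RPKM in the controls (edgeR adjusted p = 0.282), while *NCAM1* had a log2 difference of -0.11. The part of these cell types in the differences of the members was not tested.

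Other genes listed here for the slow fiber program did not shift together. Of 24 listed, 18 passed the filter in muscle, with 9 lower and 9 higher in rhesus_950807 and 0 called by edgeR in either direction, and their median log2 difference was 0.01, against -0.03 over all genes. The 4 with the smallest p went in both directions. *CA3*, the carbonic anhydrase of slow fibers, had 1952 RPKM in rhesus_950807, against 328, 187, 418 and 184 RPKM in the controls (log2 difference 2.64 ± 0.37, edgeR adjusted p = 0.126). *ANKRD1*, a stretch-responsive protein of the titin filament, had 290.0 RPKM in rhesus_950807, against 34.2, 62.4, 57.6 and 27.1 RPKM in the controls (log2 difference 2.52 ± 0.35, edgeR adjusted p = 0.126).

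These 2 listed genes were therefore highest in the animal with the lowest slow isoforms. *CSRP3*, the muscle LIM protein, had 3.62 RPKM in rhesus_950807, against 85.4, 52.3, 13.0 and 32.1 RPKM in the controls (log2 difference -3.84 ± 0.97, edgeR adjusted p = 0.425). *PDLIM1*, a Z-disc adaptor, had 6.54 RPKM in rhesus_950807, against 8.85, 15.0, 9.96 and 11.9 RPKM in the controls (log2 difference -0.98 ± 0.38, edgeR adjusted p = 0.498). Both were lowest in rhesus_950807, without the peak in rhesus_940129 for *CSRP3*.

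The regulators of fiber type, which include the calcineurin and MEF2 factors that promote the slow program and *SOX6*, which represses slow genes in mouse, were split in the same way. Of 23 listed, 16 were tested in muscle, with 8 lower and 8 higher, 0 called by edgeR and a median of -0.04. *MEF2A* had 9.55 RPKM in rhesus_950807 and 2.74 to 4.07 RPKM in the controls (log2 difference 1.22 ± 0.28, edgeR adjusted p = 0.384). The log2 differences were 0.76 ± 0.31 for *MEF2C*, 0.88 ± 0.47 for *SOX6* and 0.52 ± 0.30 for *PPP3CA*, the catalytic subunit of calcineurin, with edgeR adjusted p of 0.510, 0.612 and 0.648.

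In adipose tissue some members were almost undetected and others were measured in every library. *MYH7* had 1 read in rhesus_950807, against 15, 0, 170 and 0 reads in controls rhesus_920401, rhesus_940129, rhesus_940313 and rhesus_950509, that is 0.00418 RPKM in rhesus_950807 and at most 0.770 RPKM in the controls. The 2 libraries with 0 reads allow up to 0.0171 and 0.0133 RPKM (3 reads, counting error only). *MYL2* had 1 read in rhesus_950807, against 6, 0, 64 and 4 reads in the controls, and the library with 0 reads allows up to 0.121 RPKM. Neither passed the filter of a mean of 1 RPKM in adipose tissue, and most of their reads were in rhesus_940313, one of the adipose libraries with high *ACTA1*.

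*TNNT1* was the one tested member that was lower in rhesus_950807 than in all 4 controls, as were 7.8% of all genes in RPKM. It had 0.643 RPKM (25 reads) in rhesus_950807, against 1.68, 7.56, 9.92 and 3.71 RPKM in the controls (51, 216, 356 and 136 reads). *TNNC1* had 2.75 RPKM in rhesus_950807, against 1.26, 0.635, 7.36 and 2.14 RPKM in the controls. *MYL3* was even across animals, with 3.56 RPKM in rhesus_950807 and 2.50 to 4.25 RPKM in the controls.

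The members with forms for non-muscle cells were well expressed in fat. *TPM3* had 84.2 RPKM in rhesus_950807, against 59.4, 42.3, 51.8 and 42.2 RPKM in the controls, and *ATP2A2* had 19.0 RPKM in rhesus_950807, against 18.6, 14.9, 9.80 and 17.3 RPKM in the controls. For both, rhesus_950807 was above all 4 controls in RPKM, as were 27.9% of all genes, and after TMM scaling this held for *TPM3* only.

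edgeR called 0 of the 5 members tested in adipose tissue (0% of 11981 genes), DESeq2 also called 0 (0.0918% of all genes), and 1 had an unadjusted p under 0.05 (2.39% of all genes). That 1 was *TNNT1*, with a log2 difference of -3.39 ± 1.17, an unadjusted p of 0.0156 and an adjusted p of 0.9999 in edgeR. The log2 differences were 0.59 ± 0.40 for *TPM3*, 0.15 ± 0.43 for *ATP2A2*, -0.13 ± 0.74 for *MYL3* and -0.30 ± 1.24 for *TNNC1*. The signs of *MYL3* and *TNNC1* depended on the setting, and scaling to mapped reads moved the median of all genes in adipose tissue from -0.06 to 0.13. Without the adipose libraries of rhesus_920401 and rhesus_940313, edgeR called 0 of 5 members, against 33 of 11950 genes. The log2 difference of *TNNC1* was then 0.78.

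Slow transcripts in the adipose library of rhesus_940313 did not keep the proportions of that animal's own muscle. There *MYH7* was at 1.69% and *MYL2* at 1.40% of the level in the muscle of the same animal, and *TNNT1* at 14.3%. *TNNT1* was also present in adipose libraries with little *ACTA1*. It had 7.56 RPKM in rhesus_940129, 3.71 RPKM in rhesus_950509 and 0.643 RPKM in rhesus_950807, where *ACTA1* had 1.18, 0.444 and 1.72 RPKM. How much of the *TNNT1* RNA in rhesus_940313 came from muscle was not tested. In the same adipose library of rhesus_940313, *ACTA1* was at 0.270% and *CKM*, the muscle creatine kinase, at 0.171% of the animal's own muscle. In the adipose library of rhesus_920401, *MYH7* and *MYL2* were at 0.1004% and 0.110% of the animal's own muscle, below the 0.343% of *ACTA1*.

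The difference between tissues in the effect of rhesus_950807 was tested as an interaction over 11270 genes. edgeR called 0 of 7 members (0% of all genes), DESeq2 called 0 (0.106% of all genes), and 3 members had an unadjusted p under 0.05 (5.62% of all genes). These were *TPM3*, whose muscle difference minus adipose difference was -1.99 ± 0.45 (unadjusted p = 0.000813, adjusted p = 0.532), *MYL3* at -4.46 ± 1.58 and *ATP2A2* at -3.17 ± 1.42. The signs of *MYH7* (1.69 ± 4.04) and *MYL2* (0.35 ± 2.30) were not stable, and both turned negative, to -6.31 and -2.80, without the adipose libraries of rhesus_920401 and rhesus_940313, where *MYH7* had 1 adipose read in all.

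Between the tissues of the 4 controls, the members were higher in muscle with the exception of *TPM3*, and their median log2 difference was 7.35, against -0.23 over all genes. edgeR called 6 of 7 higher in muscle, against 22% of all genes tested, and 1 of 7 lower in muscle, against 29.6% of all genes. The log2 difference of muscle minus adipose tissue was 10.97 ± 1.79 for *MYH7* and 10.66 ± 1.33 for *MYL2*, with edgeR adjusted p of 0.000267 and 3.72e-05. It was 8.79 ± 1.11 for *TNNC1*, 7.35 ± 0.84 for *MYL3* and 6.65 ± 0.89 for *TNNT1*, with edgeR adjusted p of 4.04e-05, 1.93e-05 and 6.25e-05. Without the adipose libraries of rhesus_920401 and rhesus_940313 the differences were 13.74 for *MYL2*, 9.86 for *TNNC1*, 7.20 for *MYL3*, 6.70 for *TNNT1*, 3.02 for *ATP2A2* and -1.58 for *TPM3*. In that fit edgeR called 7 of 7 members, against 4698 of 10539 genes in either direction. *MYH7* then had 0 reads in both remaining adipose libraries, so that its lowest control muscle was at least 2663-fold higher than 3 reads per library allow, and the fitted 18.79 gives no size. Leaving out rhesus_940313 alone gave 14.44 for *MYH7* and 13.34 for *MYL2*.

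For the 5 members from *MYH7* to *TNNT1* each control muscle was above each control adipose library, as for 8.47% of all genes.

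*ATP2A2* had 12.8 to 149 RPKM in control muscle and 9.80 to 18.6 RPKM in control adipose tissue, so the tissues overlapped. Its log2 difference of 3.13 ± 0.66 (edgeR adjusted p = 0.00155) rested on rhesus_940129, being 1.89 without that animal, and limma did not call it (adjusted p of 0.0871 and 0.127). *TPM3* had 4.91 to 6.70 RPKM in control muscle and 42.2 to 59.4 RPKM in control adipose tissue, a log2 difference of -1.76 ± 0.20 with TMM scaling (edgeR adjusted p = 1.84e-05). Its 4 muscle libraries were all below the 4 adipose libraries, as were those of 65% of all genes in RPKM. Muscle RNA is dominated by a few transcripts, and scaling to mapped reads moved the median of all genes between the tissues from -0.23 to -1.61, so the direction of *TPM3* held while its size depends on the scaling (-3.14 with mapped reads).

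Without rhesus_940129 the log2 differences between tissues of the other members were 6.14 for *MYL3*, 5.65 for *TNNT1*, 7.17 for *TNNC1*, 9.24 for *MYH7* and 9.16 for *MYL2*. In that fit edgeR called all 7 members in their direction, against 6086 of 11269 genes in either direction. Over all 4 controls, 17 of 20 other slow fiber program genes tested were called higher in muscle, against 22% of all genes. The fit called 1 lower, against 29.6% of all genes. The gene called lower was *LDHB* (log2 difference -5.06, edgeR adjusted p = 9.73e-05), the lactate dehydrogenase subunit of oxidative tissues. The 7 fast partners were all called higher in muscle, and 11 of the 17 regulators tested were called higher and 0 lower.

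**Figure D5:**
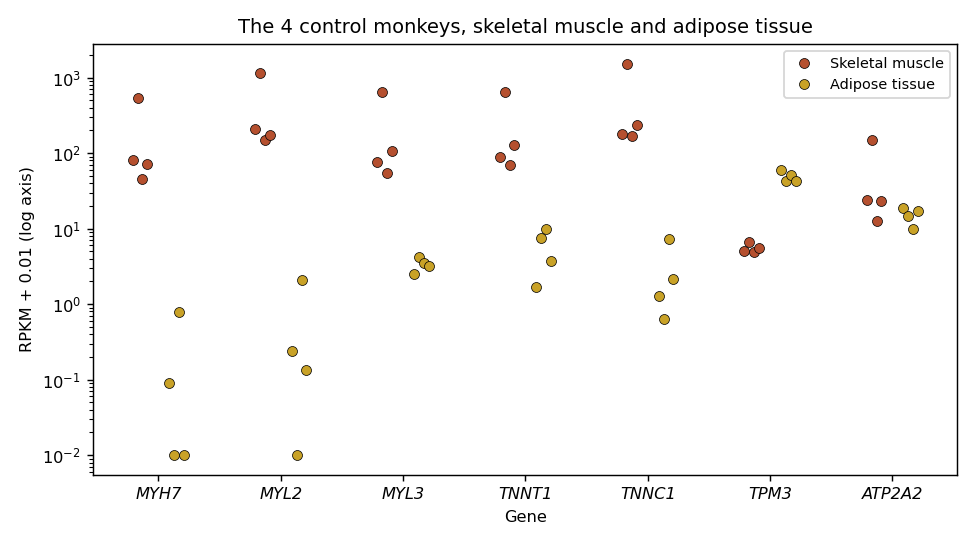
RPKM + 0.01 of each member in skeletal muscle (left of each pair) and adipose tissue (right) of the 4 control monkeys, on a log axis, with 1 point per animal. *MYH7*, *MYL2*, *MYL3*, *TNNT1* and *TNNC1* are higher in muscle without overlap, *ATP2A2* overlaps, and *TPM3* is at 4.91 to 6.70 RPKM in muscle and 42.2 to 59.4 RPKM in adipose tissue.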

How the data were processed

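Poly(A) RNA of muscle and adipose tissue of 5 monkeys was sequenced with a strand-specific dUTP protocol. Reads were mapped with TopHat, release 1.2.0 in the submitters' processing notes and another in the study's methods, and uniquely mapped reads were kept. For the counting tool, genome build, annotation release and use of strand in counting, nothing is given in the sources used here. The authors deposited read counts per gene and RPKM values. The deposited RPKM were checked to equal the count per kilobase of transcript and per mapped total. Ensembl IDs were matched to symbols for 15556 of 28595 genes (54.4%), and a symbol found more than once was represented by its highest mean RPKM. Starts are counted from 1.

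Counts were tested with edgeR 4.0.16 (TMM scaling, quasi-likelihood, two-sided, Benjamini-Hochberg over all genes averaging at least 1 RPKM, threshold 0.05 and, between tissues, also an absolute log2 difference of at least 1). Tested were 8306 genes in muscle, 11981 in adipose tissue, 11270 in the interaction and 11173 between tissues. DESeq2 1.42.0 and limma 3.58.1 on log2(RPKM + 1) and log2(RPKM + 0.1) were alternatives, beside other scalings and filters, robust variances, a joint fit and leaving out controls. Slow shares (in percent) and single genes (in RPKM) used exact permutations, and log2 CPM for spread and likeness a prior count of 2.

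Muscle and adipose libraries of one animal are paired by the labels. Their deviations from the control means correlated across 7938 genes by 0.120, -0.218, 0.0994 and 0.149 in rhesus_920401, rhesus_940129, rhesus_940313 and rhesus_950509, and the animal was a block in an alternative fit. Members and lists were chosen with earlier results of these data known. Genes named are the members, their fast partners, the 4 genes of each list with the smallest p in muscle and the 10 nearest in pattern, beside marker genes. *LDHB*, *CKM*, *CHRNA1*, *NCAM1*, *COL12A1* and *DES* were singled out after their values were seen. Sequences and *TNNI1*, *MYH1*, *MYH2* and *MYLPF* were not analysed here, so 6 of 8 planned pairs were used. Floors cover counting error only, while the intervals of the edgeR differences also include the spread among the control animals.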

Additional observations from a re-analysis of the deposited data

Results flagged for a closer look

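In 13 of 21 groups of 4 control values, 1 library lay far from the other 3 by Dixon's criterion. For normally distributed values, chance meets it in about 1 of 20 groups. The criterion was applied to RPKM and percent shares on their linear scale, where that rate need not hold. The values share libraries, so they are not separate events.

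In muscle the library was always that of rhesus_940129. It had 531 RPKM of *MYH7* (next control 80.1), 1145 RPKM of *MYL2* (208), 648 RPKM of *MYL3* (105), 651 RPKM of *TNNT1* (130), 1530 RPKM of *TNNC1* (238) and 149 RPKM of *ATP2A2* (24.1). Its slow share was 15.2% for *MYL3*, 9.29% for *TNNT1*, 11.0% for *TNNC1* and 2.10% for *ATP2A2*, and 10.2% as the median over pairs. *TPM3* and its share, and the *MYH7* share, did not stand apart by this criterion. In adipose tissue the library was that of rhesus_940313, with 0.770 RPKM of *MYH7* (next control 0.0805) and 2.06 RPKM of *MYL2* (0.229).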

How the results depend on the processing

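In muscle, edgeR called 0 of 7 members under its alternatives and without each control (0 to 0), while DESeq2 called 1. With the filter at a mean of 5 RPKM this was 0 of 6, since *TPM3* did not pass it. Of all genes in muscle, edgeR called 14 of 8361 without rhesus_940313, 10 of 15959 with no filter and 3 of 8306 with mapped reads. It called 1 of 8306 with median-of-ratios scaling, 1 of 8306 with robust variances and 0 in its other fits. DESeq2 called 88 of 8306. The 7 log2 differences stayed negative under the alternatives run. The median over members of log2 highest over lowest control muscle was 3.18, 0.86 to 3.18 with each control left out, and 0.86 without rhesus_940129. The slow share of rhesus_950807 minus the control mean was -3.33 percentage points, -4.22 to -1.11 with each control left out, the smallest difference being without rhesus_940129.

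Between tissues edgeR called 7 of 7 members without each control and with the animal as a block. Of all genes it called 5063 to 6086 without each control, and 5712 of 11173 with the block. DESeq2 called 5 of 5 members and 5838 of 11173 genes, having given no adjusted p for *MYL2* and *TNNC1*. limma did not call *ATP2A2* (1.08 and 1.12). In adipose tissue and in the interaction 0 members were called in each alternative. Of all genes in adipose tissue, edgeR called 6 of 11958 without rhesus_920401. It called 33 of 11950 without the adipose libraries of rhesus_920401 and rhesus_940313. DESeq2 called 11 of 11981 genes in adipose tissue and 12 of 11270 in the interaction, and the other alternatives called 0. Signs of members turned. In adipose tissue *MYL3* was 0.0808 with mapped reads, 0.0777 and 0.103 in limma and -0.28 to 0.0211 with each control left out, the higher without rhesus_940129, and *TNNC1* was 0.25 and 0.49 in limma, -0.63 to 0.88 with each control left out, the higher without rhesus_940313, and 0.78 without the adipose libraries of rhesus_920401 and rhesus_940313. In the interaction *MYH7* was -2.76 and -2.14 in limma, -1.78 to 3.43 with each control left out, the lower without rhesus_940313, and -6.31 without both libraries, *MYL2* was -2.74 and -1.80 in limma, -2.34 to 1.86 with each control left out, the lower without rhesus_940313, -2.80 without both and -0.0314 with the animal as a replicate block, and *TNNT1* was -1.58 to 0.18 with each control left out, the higher without rhesus_940129. The cause was not tested. The block changed no other sign or call. Of the alternatives for single members, 330 kept sign and side of the threshold and 18 turned. *MYH7* and *MYL2* in adipose tissue are limited by 0 to 170 reads.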
